A study of Mus musculus with 6 samples.

Results

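The 31 mouse genes that encode Wnt ligands and their receptors were examined for accessible chromatin, 19 ligand genes (Wnt1, Wnt2, Wnt2b, Wnt3, Wnt3a, Wnt4, Wnt5a, Wnt5b, Wnt6, Wnt7a, Wnt7b, Wnt8a, Wnt8b, Wnt9a, Wnt9b, Wnt10a, Wnt10b, Wnt11 and Wnt16) and 12 receptor genes (Fzd1 to Fzd10, Lrp5 and Lrp6). They were chosen by family membership and make up 31 of the 22350 protein-coding genes of the GENCODE vM1 annotation of mm9 (NCBIM37). ATAC-seq, in which the transposase Tn5 cuts open chromatin, was carried out in NMuMG cells, an epithelial line derived from normal mouse mammary gland. After 6 h without serum and insulin, the cells received vehicle for 2 h or 5 ng/ml TGFβ1 for 2 h or for 12 h, with 2 biological replicates of each. Each condition is represented by 1 peak list made from both replicates, so the lists carry no spread between replicates and no test between conditions was possible. The 2 h and 12 h comparisons share the vehicle list, and since vehicle cells were collected at 2 h, the 12 h treatment and the longer starvation cannot be told apart. A gene's reach was defined as its body plus 50 kb on either side of its 5′ end, and each accessible region that touched it was assigned to the gene. Values given as a series of 3 follow the order vehicle, 2 h, 12 h.

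Wnt proteins are secreted, lipid-modified ligands that act over short distances. They bind Frizzled receptors (Fzd) on the cell surface, and when the co-receptors Lrp5 or Lrp6 join the complex, β-catenin is spared from degradation and works with TCF/LEF factors in the nucleus. Other ligands, Wnt5a and Wnt11 among them, act mainly through Frizzled and alternative receptors without β-catenin. In the mammary gland, Wnt signals shape the placode, ductal branching and the stem cell compartment, and they meet TGFβ signals during the epithelial-mesenchymal transition, in which epithelial cells lose their junctions and become motile.

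The regions were made from 52626 lines in the vehicle list, 100459 at 2 h and 105334 at 12 h, which collapsed to 16765, 32548 and 33079 regions and to 39435 in the union of the 3 lists. The lists carry no read counts, and the vehicle list was shorter than either TGFβ1 list, so a region missing from it may lie below the authors' threshold. Of 10 epithelial markers, 4 (Krt8, Krt18, Krt19 and Grhl2) had a transcript start within 1 kb of a vehicle region, and 6 did in each TGFβ1 list. Epcam, Cldn3, Cldn7 and Esrp1 had none in any list, while 6 of 7 mesenchymal markers (all but Twist1) had one in each. None of 4 leukocyte and 3 endothelial markers had such a region, and of 2 adipocyte markers Pparg had one in each TGFβ1 list. The planned measure, also used for the Wnt genes below, was a 5′ end inside a region, and it gave lower counts. By it 2, 3 and 4 of the 10 epithelial markers and 5 of the 7 mesenchymal markers in each list were covered. No leukocyte, endothelial or adipocyte marker was.

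At 7 of the 31 genes the 5′ end lay in a region of a TGFβ1 list and in none of the vehicle list. The 200 bases that precede the 5′ end are shown for 4 of them, since they are stretches newly listed as accessible at the start of a Wnt ligand or receptor gene. They are read 5′ to 3′ along the gene's own strand in mm9, with each CpG dinucleotide in capitals, and none overlaps a protein-coding gene. The stretches are chr4:136833204-136833403 (plus strand) for Wnt4, chr6:91361358-91361557 (minus strand) for Wnt7a, chr11:59120230-59120429 (plus strand) for Wnt9a and chr19:3686565-3686764 (minus strand) for Lrp5. They held 27, 30, 41 and 23 CpG dinucleotides, respectively. In the 12 h list the Lrp5 region ended at chr19:3686708, so the most upstream bases of its stretch lay in the 2 h region alone.
Wnt4: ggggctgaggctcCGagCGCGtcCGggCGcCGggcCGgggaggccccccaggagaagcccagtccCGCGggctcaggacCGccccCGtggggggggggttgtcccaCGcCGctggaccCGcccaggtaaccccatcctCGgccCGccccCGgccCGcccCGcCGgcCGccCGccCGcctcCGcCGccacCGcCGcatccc
Wnt7a: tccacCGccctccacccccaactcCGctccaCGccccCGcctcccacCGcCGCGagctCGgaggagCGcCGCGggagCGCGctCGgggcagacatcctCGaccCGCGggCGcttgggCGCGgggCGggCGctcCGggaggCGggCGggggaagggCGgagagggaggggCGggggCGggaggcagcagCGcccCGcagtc
Wnt9a: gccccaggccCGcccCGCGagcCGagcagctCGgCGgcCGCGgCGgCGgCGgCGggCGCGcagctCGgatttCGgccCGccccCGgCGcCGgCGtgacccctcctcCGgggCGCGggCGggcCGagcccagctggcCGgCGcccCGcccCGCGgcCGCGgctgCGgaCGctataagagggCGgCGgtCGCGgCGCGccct
Lrp5: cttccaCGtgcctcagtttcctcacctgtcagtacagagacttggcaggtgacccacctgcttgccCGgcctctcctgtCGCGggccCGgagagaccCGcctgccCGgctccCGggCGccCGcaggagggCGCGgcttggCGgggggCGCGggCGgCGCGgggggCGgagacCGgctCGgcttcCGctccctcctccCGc

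In the vehicle list no ligand gene had its 5′ end in a region (0 of 19), whereas 7 of 12 receptor genes did: Fzd1, Fzd2, Fzd4, Fzd5, Fzd7, Fzd9 and Lrp6. Over all protein-coding genes the vehicle share was 35.9%. At 2 h the list covered the 5′ end of 3 ligand genes (Wnt4, Wnt7b and Wnt9a) and of 10 receptor genes, Fzd6, Fzd8 and Lrp5 being added to the vehicle 7, beside 41.4% of all genes. At 12 h it covered 3 ligand genes (Wnt7a, Wnt7b and Wnt9a) and 9 receptor genes, Fzd8 no longer among them, beside 41.6% of all genes. Counting the start of any annotated transcript in place of the gene's 5′ end left these member genes the same in each list, beside 39.6%, 45.3% and 45.4% of all genes. A 5′ end in at least 1 TGFβ1 list and not in vehicle was found for 4 of 19 ligand and 3 of 12 receptor genes, beside 6.97% of all genes. In both TGFβ1 lists and not in vehicle were the 5′ ends of Wnt7b, Wnt9a, Fzd6 and Lrp5, a pattern found at 4.72% of all genes. No member lost a vehicle region from its 5′ end, which happened in 1 or both TGFβ1 lists for 0.421% of all genes.

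**Figure D1:**
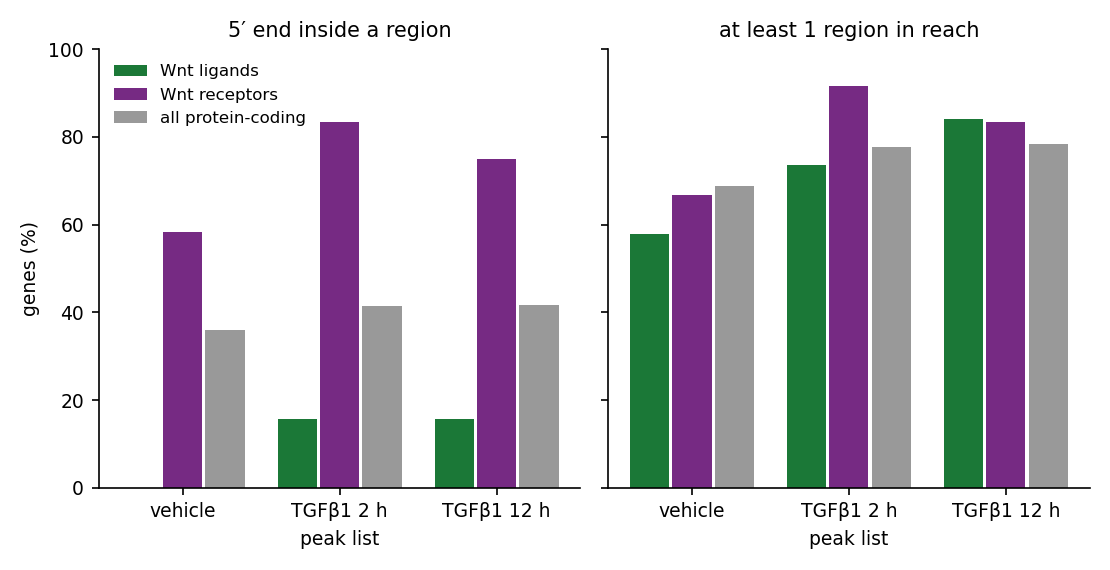
Share of genes (%) whose 5′ end lay inside a region (left) and that had at least 1 region in reach (right), by peak list, for 19 Wnt ligand genes, 12 Wnt receptor genes and 22350 protein-coding genes. No ligand gene had its 5′ end inside a vehicle region, while 58.3% of the receptor genes did.

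Seen over the whole reach, the ligand and receptor genes stood closer together. At least 1 region was in reach of 11 ligand and 8 receptor genes in the vehicle list, beside 68.8% of all genes. The counts were 14 and 11 at 2 h, beside 77.6%, and 16 and 10 at 12 h, beside 78.5%. Over the 3 lists together, 16 of 19 ligand and 11 of 12 receptor genes had a region in reach, beside 80.4%, and Wnt2, Wnt3, Wnt5a and Fzd3 had none. More regions at 2 h than in vehicle were counted for 13 ligand and 10 receptor genes, beside 55.1%, and more at 12 h than in vehicle for 13 and 8, beside 54.4%. Wnt5a, the main ligand of the β-catenin-independent branch, was the most remote, with its nearest region 576 kb from the 5′ end. Fzd3, a receptor for planar cell polarity, had its nearest region at 80.7 kb, Wnt3 at 64.9 kb and Wnt2 just past the limit at 51.2 kb.

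**Figure D2:**
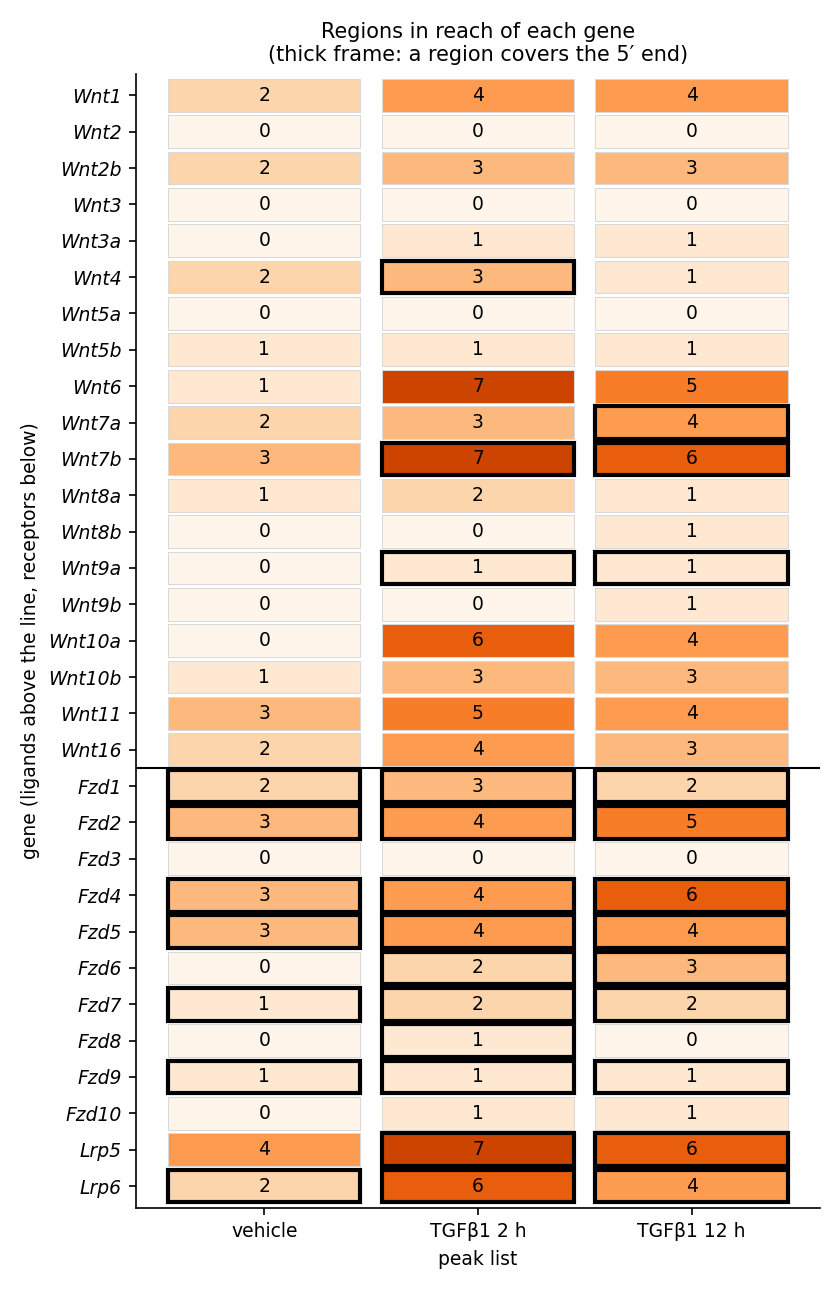
Number of regions in reach of each Wnt ligand (above the line) and receptor (below) gene in the 3 peak lists, the shade growing with the number and a thick frame marking a region over the 5′ end. Thick frames are absent from the vehicle column of the ligands, and Wnt10a has 0, 6 and 4 regions.

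In all, 87 of the 39435 union regions were in reach of a member, 47 of ligand and 40 of receptor genes. The vehicle list held 19 of the ligand regions, the 2 h list 40 and the 12 h list 35, and for the receptors the numbers were 19, 35 and 34. Thus 28 of 47 ligand regions (59.6%, 95% Wilson interval 45.3% to 72.4%) and 21 of 40 receptor regions (52.5%, 37.5% to 67.1%) were absent from vehicle, beside 57.8% of all union regions. Both intervals contain the share of all regions, so neither group was distinguishable from it by this count. With a reach of 25 kb, or with intervals at or above the median width of their list alone, the ligand share was larger and its interval lay above the share of all regions (75.9%, 57.9% to 87.8%, beside 57.8%, and 77.4%, 60.2% to 88.6%, beside 58.2%). The share of all regions counts regions at any distance from a gene, so it is not matched to the reach. The intervals cover counting error only, and neighbouring regions are not independent.

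By the lists that held them, 16 ligand regions (34.0%) and 19 receptor regions (47.5%) were in all 3 lists, beside 38.4% of the union. Regions of both TGFβ1 lists and not of vehicle numbered 12 for ligands (25.5%, 15.3% to 39.5%) and 10 for receptors (25%, 14.2% to 40.2%), beside 28.5%. The 2 h list alone held 9 ligand (19.1%) and 6 receptor (15.0%) regions, beside 12.9%, and the 12 h list alone held 7 (14.9%) and 5 (12.5%), beside 16.3%. At least 1 region of both TGFβ1 lists and not of vehicle was in reach of 10 ligand and 7 receptor genes, beside 45.9% of all genes. These counts are near the background, and nothing particular to Wnt genes is read from them.

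**Figure D3:**
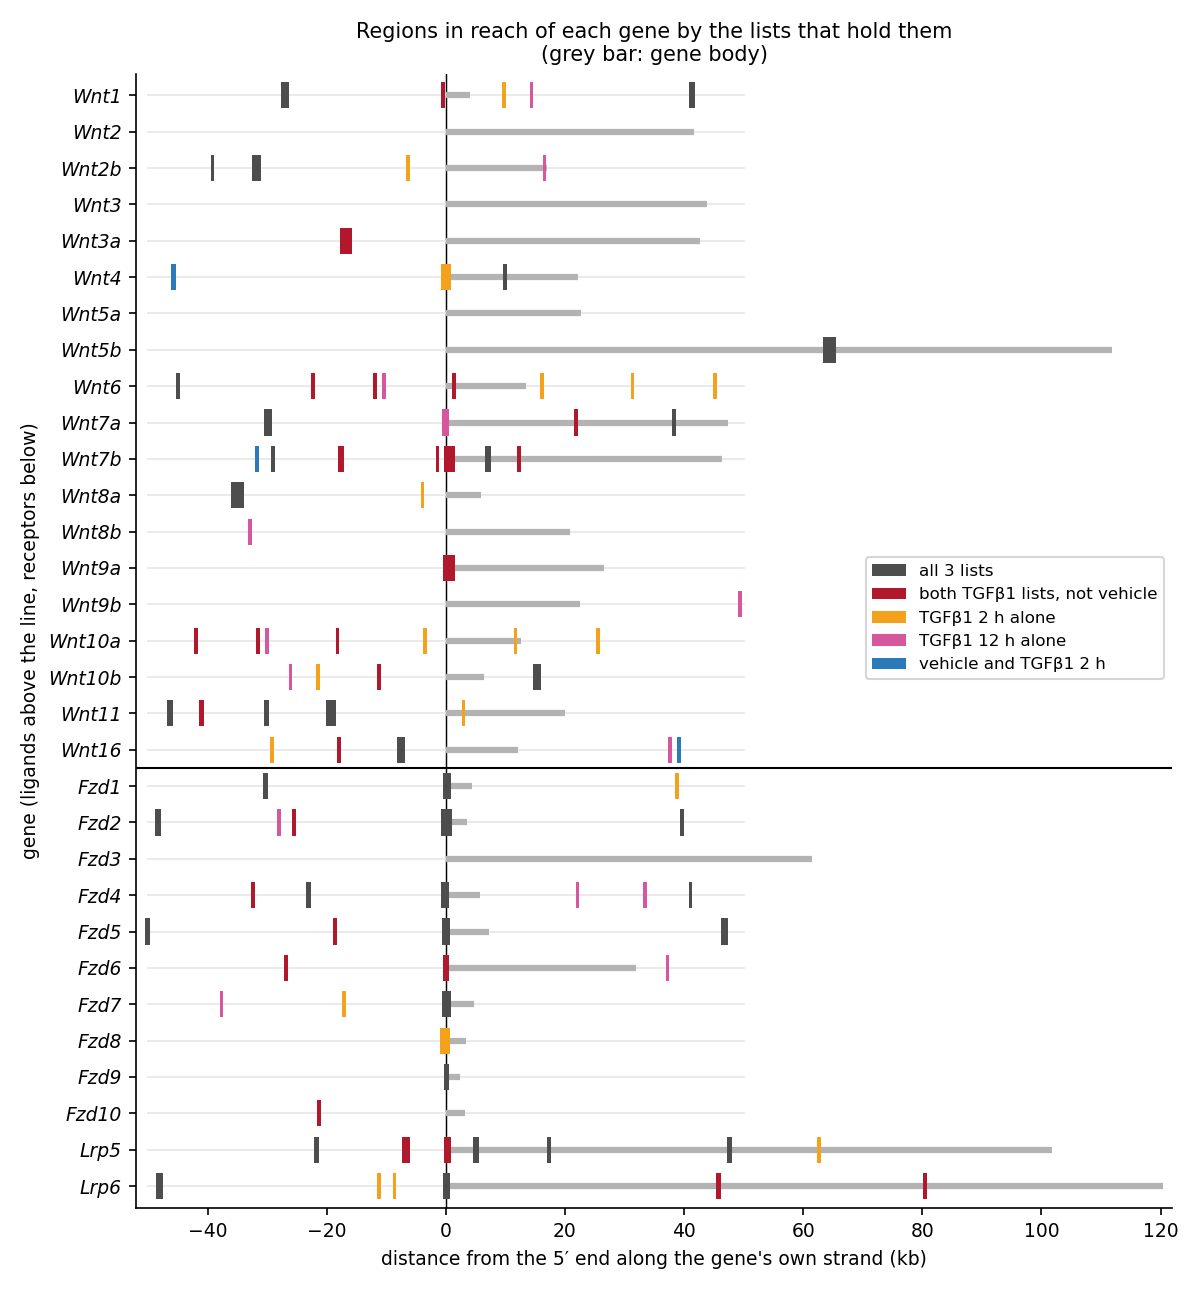
Regions in reach of each Wnt gene, placed by distance from the 5′ end along the gene's own strand (kb) and coloured by the lists that hold them, with gene bodies in grey and narrow regions drawn 0.6 kb wide. Receptor 5′ ends are mostly marked by regions of all 3 lists, and ligand 5′ ends, where marked, by regions of the TGFβ1 lists.

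Regions over ligand 5′ ends were few and differed in width. Widths here and below are those of merged regions, closed gaps included, and the number of intervals joined could differ between lists. Wnt9a, a ligand needed for joint formation, had a single region in reach, chr11:59119976-59121974, which spans upstream sequence, untranslated and coding exon and part of an intron. It was 1988 bp wide at 2 h and 1947 bp at 12 h, from 3 joined intervals in each list. It was absent from vehicle, whose nearest region lay 78115 bp away. Of the 1054 genes whose 5′ end was covered in both TGFβ1 lists and not in vehicle, 4.84% had a region as wide or wider there at 2 h and 6.36% at 12 h, and the median widths were 794 and 835 bp. The same region was the only one in reach of Wnt3a, the neighbouring ligand most used to activate β-catenin in culture, whose 5′ end lies 16176 bp from that of Wnt9a and was not covered.

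Wnt7b, a ligand of lung and kidney epithelium, had 3, 7 and 6 regions in reach, and of the ligand genes Wnt6 alone had more in the union. Its 5′ end lay in a region over untranslated and coding exon, 638 bp wide at 2 h and 1835 bp wide at 12 h. The region was made of 1 interval at 2 h and of 2 joined intervals at 12 h. It was absent from vehicle, whose nearest region was 6877 bp away in the gene's intron. Among the same 1054 genes 696 had a 5′ end region as wide at 2 h and 78 at 12 h, so it was narrower than the median at 2 h and wider at 12 h. Also in both TGFβ1 lists and not in vehicle were an upstream region at chr15:85429284-85430388 (1016 bp at 2 h, 836 bp at 12 h), an intronic one at chr15:85399672-85400237 (566 and 516 bp) and a narrow one 1313 bp upstream (207 and 217 bp). For all 7 regions the nearest protein-coding 5′ end was that of Wnt7b itself.

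Wnt4 and Wnt7a each had a 5′ end covered in 1 TGFβ1 list alone. At Wnt4, which takes part in mammary side branching and kidney tubule formation, chr4:136832641-136834344 was 1704 bp wide at 2 h, and neither the vehicle nor the 12 h list held it. Of the 234 genes whose 5′ end was covered at 2 h alone, 16 (6.84%) had a region as wide there, Wnt4 included, and the median was 670.5 bp. At Wnt7a, a ligand of limb and reproductive tract patterning, chr6:91360847-91362003 was 1157 bp wide at 12 h and absent from the other lists, and 61 of the 269 genes with a 5′ end covered at 12 h alone (22.7%) had a region as wide. The nearest vehicle region was 9805 bp from the 5′ end of Wnt4 and 29460 bp from that of Wnt7a. Wnt4 also had an intronic region in all 3 lists (268, 557 and 308 bp), and Wnt7a had an intronic region in both TGFβ1 lists and not in vehicle (674 and 551 bp), 21533 bp into the gene.

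**Figure D4:**
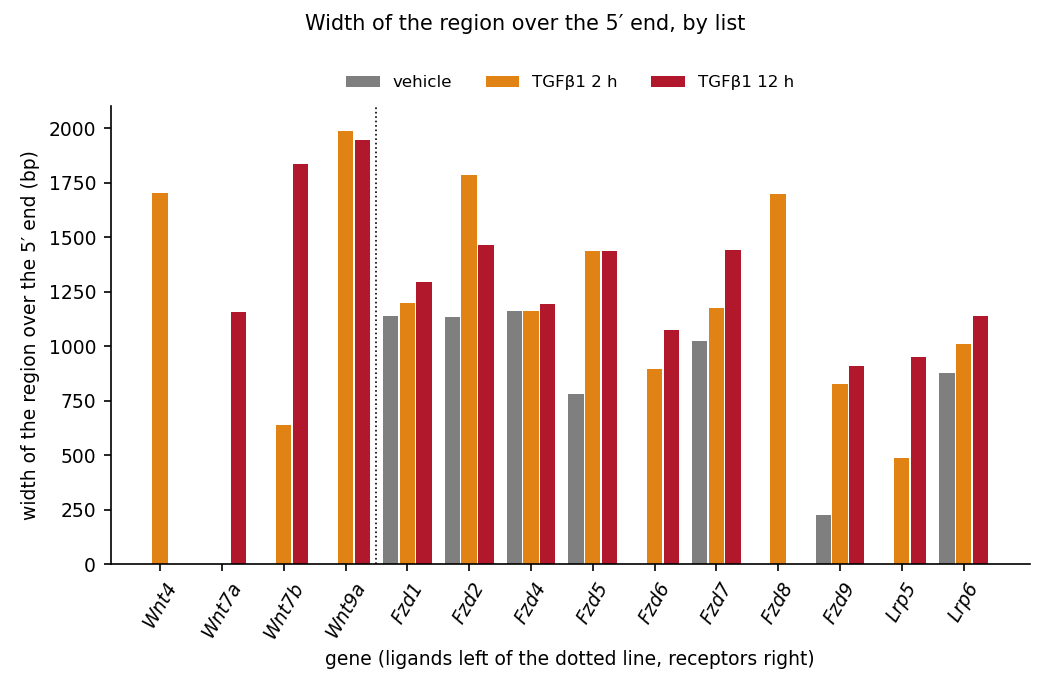
Width (bp) of the region over the 5′ end of the 14 Wnt genes that had one, by peak list, with no bar where the list had no region there. The 4 ligand genes have bars in the TGFβ1 lists alone, and 7 receptor genes have bars in all 3 lists.

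The Wnt6 and Wnt10a genes lie 19624 bp apart on chromosome 1 and shared 7 regions, none of them in the vehicle list. Wnt10a, a ligand of tooth and hair development, had 0, 6 and 4 regions in reach, and Wnt6 had 1, 7 and 5. Of the shared 7, 3 were in both TGFβ1 lists, 3 in the 2 h list alone and 1 in the 12 h list alone, and neither 5′ end was covered in any list. They were mostly narrow, at 204 to 537 bp at 2 h. The nearest to the Wnt6 or Wnt10a 5′ end was in the Wnt6 intron, chr1:74819712-74820042 (320 bp at 2 h, 305 bp at 12 h). For 2 of the shared 7 the nearest protein-coding 5′ end was that of Prkag3, 79 and 10697 bp away. When both TGFβ1 lists were shortened to the length of the vehicle list by keeping their widest intervals, Wnt10a was left with 1 region at 2 h and 1 at 12 h.

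Wnt1 and Wnt10b, 11707 bp apart on chromosome 15, shared 4 regions. Wnt1, first known as a target of mammary tumour virus insertion, had 2, 4 and 4 regions, and Wnt10b, a mammary placode ligand, had 1, 3 and 3. One of the shared regions, chr15:98619485-98620214, was in both TGFβ1 lists (668 and 730 bp) and ended 74 bp upstream of the Wnt1 5′ end, so that Wnt1 was not counted as covered. The nearest vehicle region to Wnt1 was 26331 bp away, over the 5′ end of Arf3. Wnt1 was the only ligand besides the covered 4 with a region within 1 kb of its 5′ end, and in the vehicle list no ligand gene had one, beside 39.4% of all genes.

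In reach of ligand genes, 3 vehicle regions were missing at 12 h, and all 3 were still listed at 2 h. They lay 45256 bp upstream of Wnt4 (chr4:136787174-136788148, 941 bp in vehicle and 769 bp at 2 h), 31516 bp upstream of Wnt7b (chr15:85443767-85444223, 363 and 457 bp) and 38903 bp downstream of the Wnt16 5′ end in a Fam3c intron (chr6:22277130-22277691, 343 and 546 bp). Their vehicle scores, a value the authors deposited without a stated scale that runs from 540 to 1000, were 641, 643 and 902. In the same Fam3c intron chr6:22275721-22276006 was listed at 12 h alone, just beyond the 1000 bp merging gap. The absence at 12 h near Wnt16 therefore depends on the merging rule. A vehicle region missing at 12 h was in reach of 3 of 19 ligand genes and 0 of 12 receptor genes, beside 9.79% of all genes. Such regions made up 6.38% of the ligand regions (2.19% to 17.2%) beside 3.41% of the union. No vehicle region in reach of a member was missing at 2 h, which happened for 5.40% of all genes.

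Apart from Wnt2, Wnt3 and Wnt5a, which had none, the other ligand genes had 1 to 5 regions in reach in the union. Wnt11, which guides cell movements without β-catenin, had 3, 5 and 4 regions, all away from its 5′ end, with a region of both TGFβ1 lists 40552 bp upstream (647 and 977 bp). Wnt16, a ligand of cortical bone, had 2, 4 and 3, with a region of both TGFβ1 lists 17539 bp upstream (727 and 790 bp). Wnt2b had 2, 3 and 3, and its region 30967 bp upstream was 219, 1541 and 1462 bp wide, from 1, 2 and 2 intervals. Wnt8a had 1, 2 and 1, of which the 1 shared by all lists covered the 5′ end of Fam13b. Wnt5b had the same 1 region in each list, 63278 bp into its body and over the 5′ end of Fbxl14. Wnt8b and Wnt9b each had 1 region at 12 h and none before, 32667 and 49282 bp from the 5′ end, the latter close to the 50 kb limit and 2399 bp from the Gosr2 5′ end.

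Among the receptors, 7 5′ ends were covered in all 3 lists. For Fzd2 the region was 1133, 1787 and 1464 bp wide, and for Fzd5, a receptor of the eye and intestine, 780, 1435 and 1435 bp. For Fzd1 it was 1139, 1198 and 1294 bp, for Fzd7, a receptor of stem cell compartments, 1023, 1174 and 1443 bp, and for the co-receptor Lrp6 877, 1011 and 1139 bp. These regions joined 1, 2 and 2 intervals at Fzd2, 1, 2 and 1 at Fzd5 and 1, 1 and 2 at Fzd7. At Fzd1 and Lrp6 each list had 1 interval. All 7 were wider at 12 h than in vehicle and 6 of 7 were wider at 2 h, beside 84.5% and 80.2% of the 7933 genes covered in all 3 lists. At 5 of the 7 the region was wider at 12 h than at 2 h, beside 58.9%. The gene not wider at 2 h was Fzd4, the receptor of norrin in retinal vessels, with 1162, 1160 and 1195 bp. Its region also covered the 5′ end of Tmem135, so it cannot be assigned to Fzd4 alone.

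Fzd9 had the narrowest of the 7 regions in vehicle, 227 bp with a score of 598, beside 825 and 908 bp in the TGFβ1 lists. It was the only region in reach of Fzd9 in any list. Of the 19 vehicle regions in reach of receptor genes, 16 had the highest score, compared with 6 of 19 for ligand genes and 52.3% of all vehicle regions. Where the nearest protein-coding 5′ end was that of a member, the counts were 11 of 13 for receptors and 3 of 13 for ligands. The receptor regions included those over 7 members' 5′ ends, and the ligand regions included none. The score can be compared within the vehicle list alone, since the same column of the TGFβ1 lists numbers their lines. It does not rank the 52.3% of vehicle regions that share the highest score.

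Fzd6, Fzd8 and Lrp5 were the receptor genes covered in a TGFβ1 list and not in vehicle. Fzd6, a planar polarity receptor of skin and hair, had no vehicle region nearer than 105842 bp, and its 5′ end region, over untranslated exon, was 895 bp wide at 2 h and 1074 bp wide at 12 h. The region over the 5′ end of Lrp5, the co-receptor known for its part in bone mass, was chr19:3685760-3686954. It was 488 bp wide at 2 h, from 1 interval, and 949 bp wide at 12 h, from 2 joined intervals. The nearest vehicle region was 4559 bp into the gene. Lrp5 had 4, 7 and 6 regions, and another region absent from vehicle, chr19:3692561-3693876, lay 5997 bp upstream and measured 1279 and 1310 bp. In each TGFβ1 list that region joined 2 intervals. After those of Wnt9a and Wnt7b it was the widest at 12 h of the member regions held by both TGFβ1 lists and not by vehicle.

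Fzd8 had a single region in reach, over its 5′ end and coding exon, chr18:9211930-9213629, which was 1700 bp wide at 2 h and absent from vehicle and from 12 h. It was joined from 2 intervals, whereas the region over the Wnt4 5′ end was 1 interval. Of the 234 genes with a 5′ end covered at 2 h alone, 18 (7.69%) had a region as wide there, Wnt4 among them. Wnt4 and Fzd8 were thus the members whose 5′ end was listed at 2 h and at no other time, a pattern shown by 1.05% of all genes, and coverage at 12 h alone, as at Wnt7a, by 1.20%. With 1 list per time and no replicate values, whether the accessibility at these starts differed between 2 h and 12 h was not tested.

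Away from the starts, Lrp6 had 2, 6 and 4 regions. Its 2 regions of both TGFβ1 lists and not of vehicle lay inside the gene, chr6:134470717-134471655 in an intron (939 and 667 bp) and chr6:134436328-134436780 over a coding exon (422 and 414 bp). Fzd10 had 1 such region, chr5:129085027-129085684, 21035 bp upstream (584 and 621 bp), and its nearest vehicle region was 407199 bp away. Fzd4 had 3, 4 and 6 regions and Fzd2 3, 4 and 5, which with Fzd6 (0, 2 and 3) were the receptor genes with more regions at 12 h than at 2 h. Fzd1, Fzd8, Lrp5 and Lrp6 had fewer. For the ligands, 7 of 19 genes had fewer regions at 12 h than at 2 h and 3 had more, beside 21.3% and 21.5% of all genes. For 11 of the 40 receptor regions and 12 of the 47 ligand regions the nearest protein-coding 5′ end was not that of a member, and assignment to the member is by distance alone.

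Regions present in all 3 lists were mostly wider after TGFβ1, as they were throughout the union. At 2 h 14 of 16 ligand regions and 15 of 19 receptor regions were wider than in vehicle, beside 83.2% of all such regions, and at 12 h 12 of 16 and 14 of 19 were, beside 83.7%. The region 29204 bp upstream of Wnt7a was 244, 261 and 1323 bp wide, with most of the difference at 12 h. The region 6902 bp upstream of Wnt16 was narrower in both TGFβ1 lists, with 1349, 927 and 1019 bp.

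The base composition of the 5′ ends was compared with their coverage, in the 300 bases from 250 before to 50 after each 5′ end. The 4 ligand genes covered in a TGFβ1 list held a median of 41 CpG dinucleotides (range 37 to 58), and the 15 ligand genes covered in no list a median of 24 (6 to 49). The 7 receptor genes covered in all 3 lists held a median of 32 (11 to 53). Over all genes, the median was 23 for those covered in all 3 lists, 16 for those covered in a TGFβ1 list and not in vehicle, and 4 for those covered in no list. The uncovered ligand genes were therefore not uniformly CpG-poor. Wnt5b (49), Wnt3a (45), Wnt11 (45) and Wnt2b (43) held more CpG dinucleotides than the median of the covered ligands, and Wnt8a (6), Wnt8b (6) and Wnt10a (7) few. Among receptors, Fzd2 (11) and Fzd1 (16) were covered in all lists with fewer CpG dinucleotides than the median of 23 for genes so covered. The median over all genes was 11. Fzd3 (36) was covered in no list.

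**Figure D5:**
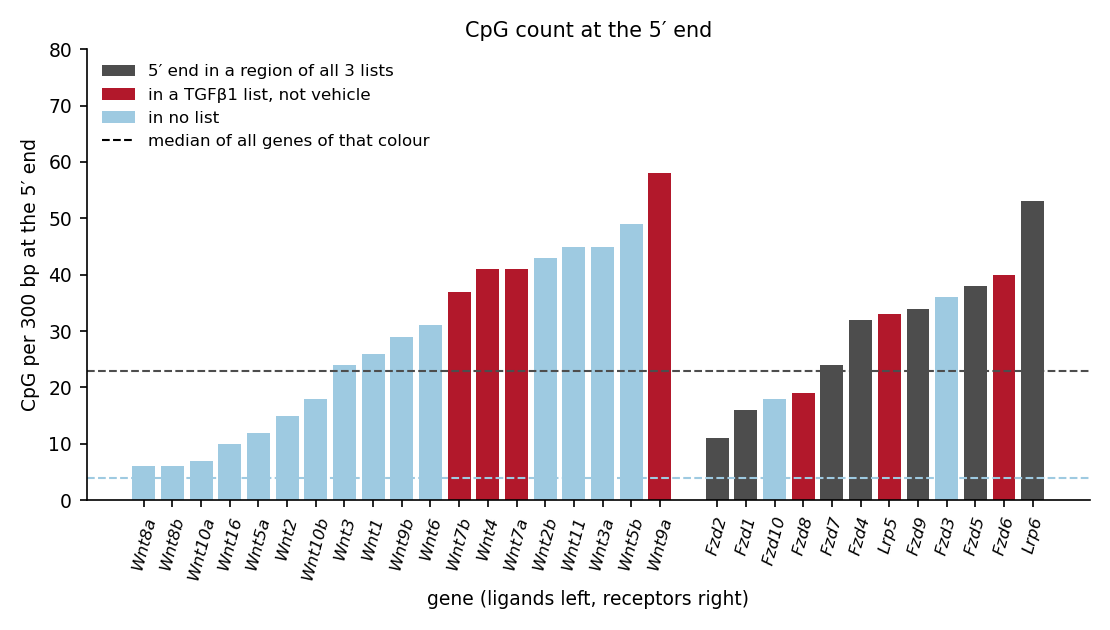
CpG dinucleotides in the 300 bp at the 5′ end of each Wnt gene, ordered by count within ligands and receptors and coloured by the lists that cover the 5′ end, with dashed lines for the medians over all protein-coding genes covered in all 3 lists (23) and in none (4). Ligand genes covered in no list run from 6 to 49, across the values of the covered ones except Wnt9a at 58.

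Exact matches to 3 motifs were searched on both strands. They were TGACTCA, bound by the AP-1 factors of the Fos and Jun families and read as TGAGTCA on the other strand, CTTTGAT, a core of TCF/LEF sites that reads as ATCAAAG, and GTCTAGAC, the palindrome of SMAD sites, and no letters of one motif contain another. Matches in the nearest region of both TGFβ1 lists and not of vehicle are shown where that region held any. The region 26481 bp upstream of Fzd6 was added after its values were seen because a TCF/LEF and an AP-1 match lay 55 bp apart in it. In the 12 h list that region ended at chr15:38811162, so both matches lay in the 2 h interval alone. The Lrp6 TCF/LEF match nearer the 3′ end of the gene also lay outside the 12 h interval, which began at chr6:134470831. The sequences follow the plus strand of mm9 with matches in capitals. In mm9 they are chr11:59121825-59121885 in the Wnt9a intron, chr6:22219930-22219990 and chr6:22220371-22220431 upstream of Wnt16, chr5:129085088-129085148 and chr5:129085425-129085485 upstream of Fzd10, chr7:96520255-96520315 upstream of Fzd4 in a Tmem135 intron, chr6:134471193-134471253, chr6:134470789-134470849 and chr6:134471463-134471523 in an Lrp6 intron, and chr15:38811203-38811295 upstream of Fzd6.
Wnt9a intron: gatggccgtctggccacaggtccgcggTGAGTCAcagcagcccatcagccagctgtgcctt
Wnt16 upstream, match farther from the gene: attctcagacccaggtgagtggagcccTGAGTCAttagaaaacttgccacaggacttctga
Wnt16 upstream, match nearer the gene: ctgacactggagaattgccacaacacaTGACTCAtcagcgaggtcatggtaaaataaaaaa
Fzd10 upstream, match farther from the gene: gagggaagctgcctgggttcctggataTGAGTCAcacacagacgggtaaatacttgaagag
Fzd10 upstream, match nearer the gene: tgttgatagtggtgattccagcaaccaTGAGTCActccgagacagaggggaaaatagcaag
Fzd4 upstream: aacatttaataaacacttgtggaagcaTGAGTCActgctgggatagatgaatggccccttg
Lrp6 intron, AP-1: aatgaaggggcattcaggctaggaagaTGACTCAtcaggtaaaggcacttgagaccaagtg
Lrp6 intron, TCF/LEF nearer the 3′ end of the gene: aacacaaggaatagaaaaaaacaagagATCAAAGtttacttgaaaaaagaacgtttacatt
Lrp6 intron, TCF/LEF nearer the 5′ end of the gene: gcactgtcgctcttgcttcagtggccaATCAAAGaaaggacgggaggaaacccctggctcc
Fzd6 upstream, TCF/LEF then AP-1: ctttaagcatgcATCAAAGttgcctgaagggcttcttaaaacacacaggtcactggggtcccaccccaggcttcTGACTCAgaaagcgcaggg

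Within windows of 500 bp centred on each region, AP-1 was matched in 11 of 47 ligand regions (23.4%, 13.6% to 37.2%) and 10 of 40 receptor regions (25%, 14.2% to 40.2%), beside 35.6% of all union regions. Among regions of both TGFβ1 lists and not of vehicle it was matched in 4 of 12 ligand and 5 of 10 receptor regions, beside 47.3%. TCF/LEF was matched in the windows of 1 ligand and 3 receptor regions (2.13% and 7.50%), beside 6.45%. The SMAD palindrome was matched in none, beside 0.819%. A window runs past the ends of a region narrower than 500 bp. The ligand TCF/LEF match lay in the window of a region of 2 h alone, outside the region itself. Inside a ligand region, TCF/LEF was matched only in the one 45256 bp upstream of Wnt4, outside its window. The receptor regions with a TCF/LEF match in the window were those upstream of Fzd6 and Lrp5 and one upstream of Fzd2 at 12 h alone. At the 5′ ends themselves, in the 300 bases described above, AP-1 was matched at Wnt5b and TCF/LEF at Wnt8a and Wnt11, 3 ligand genes with no region there, and no receptor gene had a match. Over all genes 4.42% held AP-1, 3.47% TCF/LEF and 0.175% the SMAD palindrome. A match describes letters and is no measurement of binding.

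Of 43 other genes of the pathway, the 5′ end was covered for 20, 22 and 24, beside 35.9%, 41.4% and 41.6% of all genes, and none was lost. Porcn and Wls, which lipidate and export the ligands, were covered in each list, as were Znrf3 and Rnf43, the ligases that remove Frizzled from the surface. Of 11 cytoplasmic components, among them Dvl1, Axin1, Apc and Gsk3b, 9 were covered in each list. Of 11 secreted inhibitors, the Dkk and Sfrp genes included, 1 was (Wif1). A 5′ end covered in a TGFβ1 list and not in vehicle was found for 4 of the 43, beside 6.97% of all genes. Ryk, an alternative Wnt receptor, and Tcf7l1, a TCF factor, were covered in both lists. Rspo3 and Lgr6, an R-spondin and a receptor for R-spondins, were covered at 12 h alone. Lgr6 already had a transcript start within 1 kb of a 2 h region, and Rspo3 did not. Lef1, Ror2 and Ptk7 were covered in no list. The secreted ligands and inhibitors were thus rarely covered in any list (4 of 19 and 1 of 11), while the covered share was larger for the receptors and the cytoplasmic components (10 of 12 and 9 of 11), beside 42.9% of all genes, and these differences were not tested.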

How the data were processed

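ATAC-seq was carried out by the authors in NMuMG cells, 6 samples in 3 conditions of 2 biological replicates, grouped by the sample labels. Reads were trimmed, aligned to mm9 and filtered with the ENCODE ATAC-seq pipeline, peaks were called with MACS2 (v2.1.2, per the submitters' notes), and those reproducible between replicates by IDR were kept. The deposited files hold peak positions, 1 list per condition. The authors deposited a score beside each vehicle peak and gave no scale for it, while the same column of the 2 TGFβ1 lists numbers the lines and was not used. The study lists read totals per library, in which the vehicle libraries together were the deepest after filtering. These totals were not used here, and the lists carry no read count per peak, so the depth behind each peak is unknown.

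From these positions, intervals under 150 bp were dropped and gaps under 1000 bp merged, list by list and again on the pooled lists. A union region counted as held by a list when it shared at least 1 bp with a region of that list. Regions of different lists joined across a gap therefore need not overlap each other. Upstream of Fzd5, the 2 h interval (chr1:64802676-64802890) and the 12 h interval (chr1:64802953-64803219) of such a region shared no base. Without merging, 12 ligand and 6 receptor genes, in place of 10 and 7, had a region of both TGFβ1 lists and not of vehicle. Member genes, 5′ ends, exons and introns were taken from GENCODE vM1 and sequence from NCBIM37 (mm9). In results named in the text, all 31 genes are given. Single regions were named where they cover a 5′ end, are the nearest region of both TGFβ1 lists and not of vehicle, are vehicle regions that a TGFβ1 list lacks, or are the 3 widest at 12 h of those of both TGFβ1 lists. Others were chosen after their values were seen. The gene lists and members were chosen with earlier results of these data known.

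No test was run, because each condition has 1 list. Shares are given with 95% Wilson intervals, which cover counting error only, beside the share over all 22350 protein-coding genes or 39435 union regions. Promoter windows without unknown bases were obtained for 22345 genes. The upstream sequence of some genes is not reported here. The interval code was checked base by base on simulated lists. Python 3.11.15, numpy 2.4.6, pandas 2.3.3, scipy 1.17.1 and matplotlib 3.10.9 were used. Alternatives changed the minimum width, the merging, the list length, the rule for sharing, the reach and the choice of transcript start.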

Additional observations from a re-analysis of the deposited data

How the results depend on the processing

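Of 74 recomputed values, 63 stayed within the 95% interval of the reported share or within 1.5 times the reported count. With intervals at or above the median width of their list alone, ligand regions numbered 31 and receptor regions 26, and 77.4% of the ligand regions (60.2% to 88.6%) were absent from vehicle, beside 58.2% of all union regions at that setting. With both TGFβ1 lists shortened to the length of the vehicle list, 42.4% of ligand (27.2% to 59.2%) and 34.5% of receptor regions (19.9% to 52.7%) were absent from vehicle, beside 32.4% of all, and 3 receptor genes had a region of both TGFβ1 lists and not of vehicle. A reach of 25 kb gave 29 ligand and 25 receptor regions. Of these ligand regions 75.9% (57.9% to 87.8%) were absent from vehicle, beside 57.8% of all union regions at any distance from a gene. A reach of 100 kb gave 104 and 63 regions. The number of ligand genes with a covered 5′ end was 4 under each alternative, and of receptor genes 9 or 10. Of 837 recounts of regions per gene and list, 180 moved by over 1.5 times, 60 of them with the 100 kb reach. No paired analysis was possible because each condition has 1 list and no value per replicate, and for the same reason no replicate could be left out. Apart from the ligand share at a 25 kb reach and at the median width, the intervals of both shares contained the share of all union regions at each setting. A region under the threshold of a list is missing from it whatever its signal, and the part of sequencing depth in this was not tested.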
